A study of Mus musculus with 6 samples.

Results

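Matricellular proteins are secreted into the extracellular matrix, where they bind receptors and growth factors and alter how cells hold to the matrix. The 10 genes described here encode osteopontin (Spp1), periostin (Postn), Cthrc1, tenascin-C (Tnc), fibronectin (Fn1), thrombospondin 1 and 2 (Thbs1, Thbs2), fibulin 2 (Fbln2), Sparc and connective tissue growth factor (Ctgf, also called Ccn2). They were chosen by name for their known place in fibrosis, with earlier results of these data known, so their levels are given as a description. All 10 were found among the 27998 genes of the table. The question here is which cells of the sorted lung preparations carry their transcripts. In GRCm38 (GENCODE M21), where all 10 are protein coding, Spp1 lies on the + strand at chr5:104435118-104441050, Postn on the + strand at chr3:54361109-54391037, Cthrc1 on the + strand at chr15:39076932-39087121 and Tnc on the - strand at chr4:63959785-64047015. Fn1 lies on the - strand at chr1:71585520-71653200, Thbs1 on the + strand at chr2:118111876-118127133 and Thbs2 on the - strand at chr17:14665500-14694235. Fbln2 lies on the + strand at chr6:91212455-91272540, Sparc on the - strand at chr11:55394500-55423183 and Ctgf on the + strand at chr10:24595442-24598683.

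The study profiled lung cells of SMA-GFP;Tbx4cre;RosaTdTomato mice by droplet single-cell RNA sequencing. In these mice GFP reports the smooth muscle actin promoter, and TdTomato marks cells with a history of Tbx4-driven Cre, a lineage of lung mesenchyme. The 6 samples are SMA+Tm+, SMA-Tm+ and SMA-Tm- cells from bleomycin-treated lungs at day 21, and SMA+Tm+, SMA-Tm+ and SMA-Tm- cells from normal lungs (day 0), each with 1 sample. All were sorted as negative for Epcam, CD31 and CD45. Bleomycin, given to mice, causes lung injury followed by fibrosis. The number and age of the animals are not given in the sources used here.

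All samples came pooled in 1 count table of 10410 cell barcodes. A number from 1 to 6 at the end of each barcode splits it into 6 sets, called suffixes here, and nothing in the labels or the table ties a suffix to a sample. Day 21 could therefore not be set against day 0, nor a gate against another, and no test across samples was possible. Intervals are exact 95% intervals and cover counting error only. The 9919 barcodes kept as cells held 34177581 unique molecular identifiers (UMIs, each a counted transcript molecule), with a median of 2699 UMIs a cell. The kept cells of a suffix ranged from 683 to 2990 in number, and 47 kept barcode sequences occurred in more than 1 suffix.

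Cells were put in classes by marker genes, the first match winning. Alveolar macrophages had UMIs of at least 2 of Krt79, Ear1 and Plet1 (1147 cells). Other leukocytes had at least 1 UMI of Ptprc, which encodes CD45 (3518 cells). Mural cells, which wrap small vessels, had UMIs of at least 2 of Higd1b, Cox4i2 and Notch3 (66 cells). Mesenchymal cells had at least 3 UMIs of the collagens Col1a2 and Col3a1 together (2523 cells), and endothelium at least 2 UMIs of Pecam1 and Cdh5 together (591 cells). No rule took in the other 2074 cells, which carried the epithelial gene Sftpc at 10068.5 CPM (UMIs of a gene per 1000000 UMIs of the group), Scgb1a1 at 5632 CPM and the B cell gene Cd79a at 718.9 CPM. These cells also carried the leukocyte markers Lyz2 at 4779 CPM and S100a8 at 1267 CPM, and the mesenchymal marker Mgp at 1765 CPM. The table thus held many leukocytes and some endothelium, although the sort was against CD45 and CD31.

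The class names were checked against further marker genes that the rules did not use. All 4 further alveolar macrophage markers reached 50 CPM in that class, with a summed level of 5863 CPM, against 391.2 CPM in the other leukocytes. All 4 further mesenchymal markers reached 50 CPM in the mesenchymal class. They also reached it in the unclassified cells, as did all 8 further leukocyte markers. Those leukocyte markers summed to 7914.5 CPM in the unclassified cells, against 9979 CPM in the other leukocytes. The mural class was mixed. It carried 4 of 5 further mural markers at 50 CPM or more, with a summed level of 1433.5 CPM, beside all 4 further endothelial markers, with a summed level of 2909 CPM. Marker sums given below are over whole lists, rule genes included. Of the 4 further mesenchymal markers, 3 reached 50 CPM in the mural class, with a summed level of 1756 CPM. Among the 66 mural cells, 27 also passed the mesenchymal rule and were kept as mural by the order of the rules. The endothelium rule was also passed by 20 of the 66. In these 20 cells the endothelial gene Cdh5 stood at 1700 CPM and the mural gene Pdgfrb at 311.2 CPM, against 10.9 and 1691 CPM in the other 46.

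The members fell into several patterns rather than into 1. Mesenchymal cells held the largest share of the UMIs of 6 of the 10 members, against 34% of the 14072 genes with at least 30 UMIs. The count was 3 with stricter class thresholds. These 6 were Tnc (87.3% of its UMIs), Thbs2 (87.1%), Fbln2 (89.0%), Ctgf (85.0%), Sparc (82.0%) and Thbs1 (74.9%). Spp1 lay mostly in alveolar macrophages, with 61.0% of 5933 UMIs. Postn lay mostly in the 66 mural cells, with 60.3% of 295 UMIs. Fn1 was spread over other leukocytes (31.6% of 10639 UMIs), mesenchymal cells (31.0%) and alveolar macrophages (26.5%). Cthrc1 had 49 UMIs in all kept cells, of which 21 lay in endothelium.

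**Figure D1:**
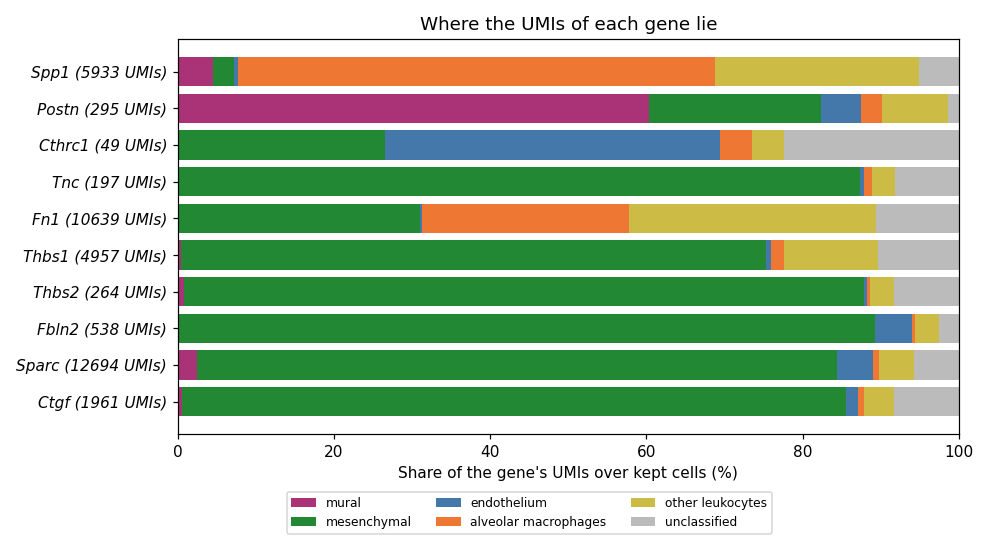
Share of each gene's UMIs (x axis, percent of its UMIs over all kept cells) by class of cells, 1 bar a gene. Mesenchymal cells hold 74.9% to 89.0% of 6 genes, alveolar macrophages 61.0% of Spp1 and mural cells 60.3% of Postn.

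The UMIs were also unevenly held within classes. For Spp1, 104 cells held 50% of all UMIs, and the highest cell held 200. For Sparc, 584 cells held 50% of the UMIs. For Postn and for Cthrc1, 19 cells each held that share. In mesenchymal cells a single cell held 53 of the 156 Spp1 UMIs (34.0%). The collagen threshold was not a sharp border for the mesenchymal members. The 227 mesenchymal cells with exactly 3 collagen UMIs had 511.3 CPM of Thbs1 and 773.0 CPM of Sparc, and the 227 unclassified cells with 2 collagen UMIs had 441.3 and 714.7 CPM. Unclassified cells with no collagen UMI had 47.1 CPM of Thbs1 and 50.8 CPM of Sparc.

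**Figure D2:**
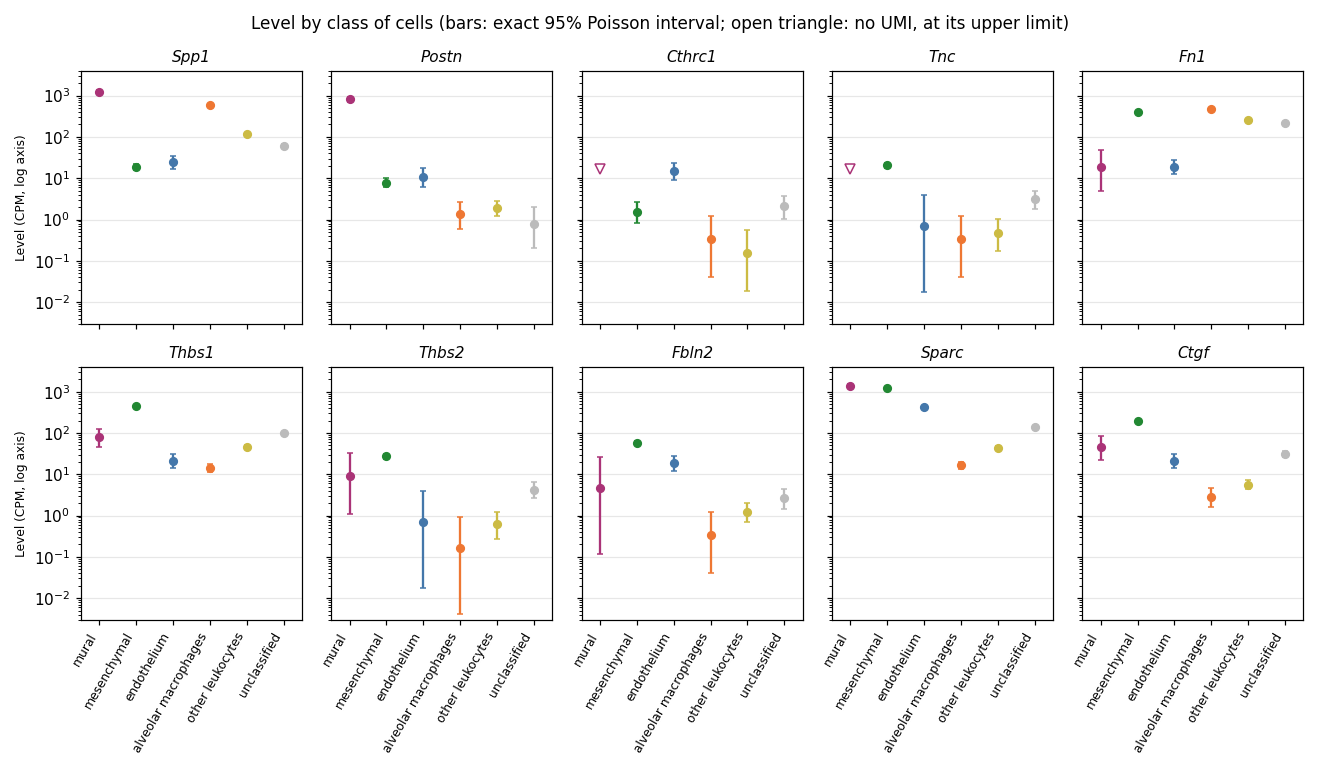
Level of each gene by class, in CPM on a log axis, with exact 95% Poisson intervals; an open triangle marks a class with no UMI, at the upper limit of its interval. Spp1 and Postn are highest in mural cells (1239.9 and 820.5 CPM), and the mesenchymal class is highest for Tnc, Thbs1, Thbs2, Fbln2 and Ctgf.

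Among the classes, the osteopontin and periostin genes had their highest levels in the mural class. Spp1 was not particular to it, as it was detected in 29 of 66 mural cells (43.9%) and in 60.4% of alveolar macrophages. Osteopontin binds integrins and CD44 and acts as a cytokine as well as a matrix protein, and periostin binds integrins and takes part in collagen assembly. Spp1 stood at 1239.9 CPM in mural cells (1096 to 1397, 269 UMIs), against 18.6 CPM in mesenchymal cells (15.8 to 21.7, 156 UMIs), a ratio of 66.8 (54.7 to 81.9). Postn stood at 820.5 CPM in mural cells (704.4 to 950.3, 178 UMIs), against 7.73 CPM in mesenchymal cells (5.97 to 9.85, 65 UMIs), a ratio of 106 (79.5 to 143). For both genes the intervals of the groups were far apart. Postn was detected in 48 of 66 mural cells (72.7%) and in 26 of 2523 mesenchymal cells (1.03%). With every cell thinned to 1000 UMIs, the shares were 47.5% of 61 mural cells (34.6% to 60.7%) and 0.243% of 2470 mesenchymal cells. As a measure of free RNA, leukocytes with at least 2 of the T and NK cell genes Cd3e, Cd3d, Trbc2 and Nkg7 had Postn in 0 of 649 thinned cells, an upper limit of 0.567%. This measure comes mostly from other suffixes than the mural cells do: 29 of the 651 unthinned cells were in suffix 4 and 31 in suffix 1, with no Postn UMI in either.

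Spp1 and Postn were detected together in 23 mural cells, Spp1 alone in 6, Postn alone in 25, and neither in 12. Postn was thus found in 79.3% of the 29 mural cells with Spp1 and in 67.6% of those without, a difference of few cells. Within the mixed class the levels were higher in the cells that did not pass the endothelium rule. The 27 mural cells that also passed the mesenchymal rule were not split out. In the 20 cells that also passed the endothelium rule Spp1 stood at 231.4 CPM, Postn at 391.0 CPM and Sparc at 694.3 CPM. In the 46 cells that did not, Spp1 stood at 2619 CPM, Postn at 1408 CPM and Sparc at 2379 CPM. Without those 20 cells the log2 ratio of mural over mesenchymal cells, with 10 CPM added to both levels, was 6.53 for Spp1 and 6.32 for Postn, against 5.45 and 5.55 with them.

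The mural levels were seen in each suffix with 10 or more mural cells. Spp1 stood at 873.4, 343.5 and 2074 CPM in suffixes 1, 3 and 4 (11, 11 and 37 cells). Postn stood at 965.3, 453.4 and 1106 CPM in the same suffixes. Suffix 4 held 197 of the 269 mural Spp1 UMIs. Spp1 stood there at 853.1 CPM in other leukocytes, 868.8 CPM in alveolar macrophages and 303.3 CPM in unclassified cells. It stood there at 22.2 CPM in mesenchymal cells and 19.2 CPM in endothelium. The part of free RNA in the mural Spp1 level was not tested. Suffix 3 was the lowest for both, and there the endothelial markers summed to 6031 CPM in mural cells and the epithelial markers to 9246 CPM. In suffix 4 these sums were 3180 and 21.1 CPM. The part of these other cells' RNA in the lower levels of suffix 3 was not tested.

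The 250 bases before the start sites of Spp1 and Postn are shown because these are the members 4-fold higher in mural than in mesenchymal cells. They were taken from RefSeq (GRCm38.p6), whose promoter table matched 6 of the 10 members. The Spp1 stretch lies on the + strand at chr5:104434861-104435110 and the Postn stretch on the + strand at chr3:54360857-54361106. Capitals mark matches, on either strand, to TATAAA (the TATA box), CAGACA (SMAD), TGGGAA (RBPJ, the DNA partner of Notch), TGANTCA (AP-1) or GGAATG (TEAD).
Spp1: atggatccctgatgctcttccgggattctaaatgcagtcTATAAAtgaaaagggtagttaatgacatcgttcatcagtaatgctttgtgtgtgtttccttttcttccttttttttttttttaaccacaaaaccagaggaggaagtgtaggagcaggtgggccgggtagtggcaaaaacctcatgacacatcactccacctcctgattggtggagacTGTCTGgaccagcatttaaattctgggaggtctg
Postn: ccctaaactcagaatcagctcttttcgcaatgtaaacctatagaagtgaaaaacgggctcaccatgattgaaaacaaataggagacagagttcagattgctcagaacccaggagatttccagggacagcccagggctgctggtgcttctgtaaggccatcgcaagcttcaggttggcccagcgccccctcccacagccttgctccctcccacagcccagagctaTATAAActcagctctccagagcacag
Both stretches hold TATAAA, in Postn 21 to 26 bases before the start site and in Spp1 206 to 211 bases before it. In Spp1 the SMAD letters lie 29 to 34 bases before the start, on the opposite strand. TATAAA was found in 12.4% and CAGACA in 17.1% of the 32851 mouse promoters of the same length. The RBPJ letters (21.6% of promoters), the AP-1 letters (6.75%) and the TEAD letters (12.6%) were not found in these 2 windows.

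Fibronectin and thrombospondin 1 showed the opposite order. Fibronectin forms fibrils on which other matrix proteins assemble, and thrombospondin 1 can activate latent TGF-beta. Fn1 had 4 UMIs in mural cells (18.4 CPM, 5.02 to 47.2), against 391.9 CPM in mesenchymal cells (378.6 to 405.5), 21.3-fold lower (8.29 to 78.1). Thbs1 stood at 78.4 CPM in mural cells (45.7 to 125.5), against 441.8 CPM in mesenchymal cells (427.7 to 456.3), 5.64-fold lower (3.52 to 9.69). Fbln2 had a single UMI in mural cells, 4.61 CPM (0.117 to 25.7), against 57.0 CPM in mesenchymal cells, a ratio of 12.4 with an interval of 2.21 to 489. Ctgf stood at 46.1 CPM in mural cells (22.1 to 84.8), against 198.3 CPM in mesenchymal cells, 4.30-fold lower (2.33 to 8.99) and 3.71-fold with 10 CPM added. The direction for Ctgf depended on the order of the class rules. Its log2 ratio with 10 CPM added was -1.89 here and 0.37 with class rules in reversed order. Thbs2 had 2 UMIs in mural cells, both in 1 cell, at 9.22 CPM, against 27.4 CPM in mesenchymal cells. Tnc and Cthrc1 had no UMI in mural cells, where 3 UMIs would be 13.8 CPM. Sparc, a collagen-binding glycoprotein, stood at 1406 CPM in mural and 1238.5 CPM in mesenchymal cells, and the order of the classes turned round under median-of-ratios scaling and without suffix 4.

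With 10 CPM added to both levels, 5 of the 10 members were at least 4-fold apart between mural and mesenchymal cells, 2 higher and 3 lower in mural cells. Of the 4404 genes at 50 CPM or more in either class, 7.9% were 4-fold higher and 4.56% 4-fold lower in mural cells; 7 of the members passed that level. The median log2 ratio was -1.28 over the 10 members and 0.26 over all those genes. Scaling by the median of ratios in place of the total would lower the log2 ratios of this comparison by up to 0.30. With 10 CPM added, the change is smaller for genes at low mural levels. Without suffix 3 the count was 3, and it was also 3 with 50 CPM added or with cells thinned to 1000 UMIs.

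In alveolar macrophages, which clear surfactant and debris in the airspaces, Spp1 and Fn1 had the highest levels of the members. Spp1 stood at 603.4 CPM (583.9 to 623.4) in alveolar macrophages, against 119.5 CPM (113.7 to 125.6) in other leukocytes, a ratio of 5.05 (4.76 to 5.36). Fn1 stood at 470.4 CPM (453.2 to 488.1) in alveolar macrophages, against 259.1 CPM (250.4 to 268.0) in other leukocytes, a ratio of 1.82 (1.73 to 1.91). By suffix, 1 to 6, Fn1 stood at 417.9, 387.6, 220.9, 550.6, 491.8 and 301.7 CPM in alveolar macrophages. In other leukocytes these levels were 192.7, 250.2, 366.3, 544.2, 100.2 and 241.8 CPM. Fn1 was thus lower in alveolar macrophages in suffix 3, and the intervals overlapped in suffixes 4 and 6. Spp1 was detected in 693 alveolar macrophages (60.4%) and Fn1 in 711 (62.0%), and 450 cells had both. Fn1 was found in 64.9% of the macrophages with Spp1 and in 57.5% of those without. Thinned to 1000 UMIs, 29.8% of alveolar macrophages had Spp1 (27.2% to 32.6%) and 32.0% had Fn1 (29.2% to 34.8%). The leukocytes with T and NK cell genes then had Spp1 in 0 of 649 cells and Fn1 in 0.308%. In suffix 4 they were 29 cells with 1 Spp1 UMI (7.49 CPM). The 21 cells with B cell genes there had 58 Spp1 UMIs (725.4 CPM). Over all suffixes 1.96% of the cells with B cell genes had Spp1, and 1 cell held 38.6% of their Spp1 UMIs. Mesenchymal cells of suffix 4 had 22.2 CPM of Spp1 and endothelium 19.2 CPM. The pooled share rests mostly on other suffixes, and the background of suffix 4 was not tested.

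Spp1 was the only member 4-fold apart in this comparison, at 4.74-fold with 10 CPM added. Among the 3447 genes at 50 CPM or more, 5.22% were 4-fold higher and 4.29% 4-fold lower in alveolar macrophages; 2 members, Spp1 and Fn1, passed that level. Either way 9.52% were 4-fold apart. The log2 ratio was 2.24 in all cells and 1.91 without suffix 5, which is under the 4-fold line of 2. It was 3.86 without suffix 4. The call was also lost with class rules in reversed order (1.97), stricter class thresholds (1.37), median-of-ratios scaling (1.95) and 50 CPM added (1.95).

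Spp1 in other leukocytes came mostly from suffix 4. In alveolar macrophages Spp1 stood at 405.4, 313.6, 252.0, 868.8, 505.6 and 449.6 CPM in suffixes 1 to 6. In other leukocytes it stood at 20.8, 14.3, 14.7, 853.1, 28.6 and 8.30 CPM. Alveolar macrophages were thus high in every suffix, and the other leukocytes reached the same level in suffix 4 alone. Suffix 4 held 1334 of the 1549 Spp1 UMIs of the other leukocytes, in 285 of their 3518 cells. In those 285 cells the alveolar macrophage markers summed to 1633 CPM and the mesenchymal markers to 4259 CPM, against at most 374.0 and 753.8 CPM in any other suffix. The alveolar macrophages themselves carried 5737 to 8915 CPM of their marker list in the suffixes. The part of these other cells' RNA in the Spp1 level of suffix 4 was not tested.

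**Figure D3:**
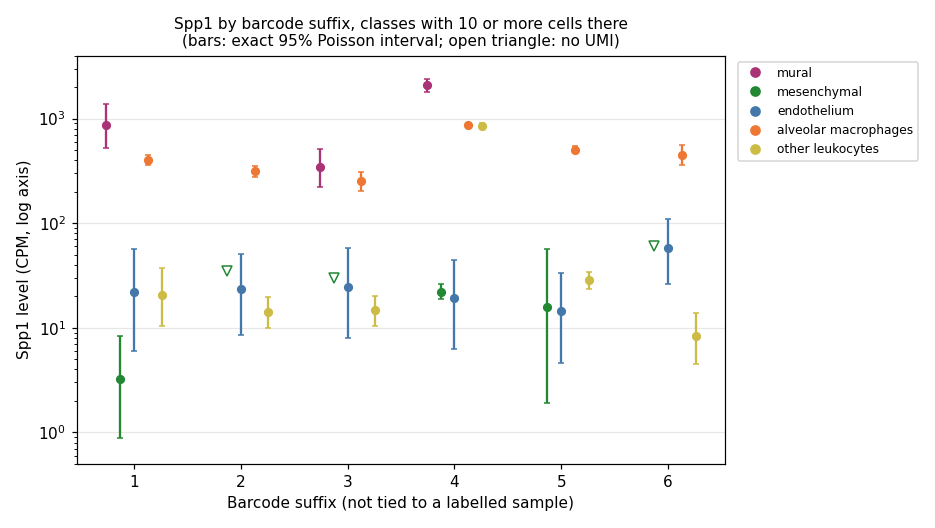
Spp1 level in CPM (log axis) by barcode suffix and class, for classes with 10 or more cells in a suffix, with exact 95% Poisson intervals; open triangles mark no UMI. Alveolar macrophages lie between 252.0 and 868.8 CPM throughout, and other leukocytes lie at 8.30 to 28.6 CPM except in suffix 4, at 853.1 CPM.

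The other leukocytes were split further by gene sets added after their levels were seen, each cell needing 2 genes of a set and more than of any other. Pooled over suffixes, Spp1 and Fn1 did not follow each other across these sets. The 350 cells of the monocyte gene set Ly6c2, Ccr2, F13a1 and Fcgr1 had the highest Fn1, at 942.9 CPM (898.2 to 989.3), detected in 84.0% of cells, and 2.26 CPM of Spp1 from 4 UMIs. The 134 cells of the macrophage gene set C1qa, C1qb and C1qc had 738.0 CPM of Fn1 (678.9 to 800.9) and 717.5 CPM of Spp1 (659.2 to 779.5). The 196 cells of the set Ace, Ear2, Treml4 and Nr4a1 had 315.6 CPM of Fn1 and 384.7 CPM of Spp1. Spp1 of this set ranged from 17.8 to 1098 CPM over the suffixes with 10 or more such cells, and 1 cell held 73 of its 323 UMIs. Suffix 4, the source of most Spp1 UMIs of the other leukocytes, held 5 of the 350 cells of the Ly6c2 set. It held 48 of the 134 cells of the C1qa set and 42 of the 196 cells. The sets thus differed in suffix, and the part of this in their Spp1 levels was not tested. Cells with B cell genes had 39.4 CPM of Fn1, and cells with T and NK cell genes 4.05 CPM.

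Fn1 of the Ly6c2 set ranged from 832.7 to 1053 CPM over the suffixes with 10 or more such cells. The C1qa set varied more. Of the suffixes with 10 or more such cells, Fn1 stood at 1033 CPM in suffix 1 (13 cells), 2330.5 CPM in suffix 2 (21 cells), 824.0 CPM in suffix 4 (48 cells) and 235.4 CPM in suffix 5 (48 cells). Spp1 of this set had no UMI in suffixes 1 and 2 and stood at 1445.5 CPM in suffix 4 and 124.9 CPM in suffix 5, so that 521 of its 559 UMIs came from suffix 4. Thbs1 stood at 474.7, 669.7, 83.2 and 3.57 CPM in suffixes 1, 2, 4 and 5, the last from 1 UMI. Suffix 4 was thus highest for Spp1, suffix 2 was highest for Fn1 and Thbs1, and suffix 5 was lowest for Fn1 and Thbs1. Over all suffixes Thbs1 was highest in the 56 cells of the neutrophil gene set S100a8, S100a9, Retnlg and Csf3r, at 199.0 CPM (144.6 to 267.1). The Ly6c2 set followed at 160.6 CPM (142.5 to 180.5), with overlapping intervals. In the neutrophil set 14 cells held the 44 Thbs1 UMIs, and the 2 suffixes with 10 or more such cells stood at 0 and 377.8 CPM. The Ly6c2 set ranged from 77.0 to 252.7 CPM over such suffixes.

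**Figure D4:**
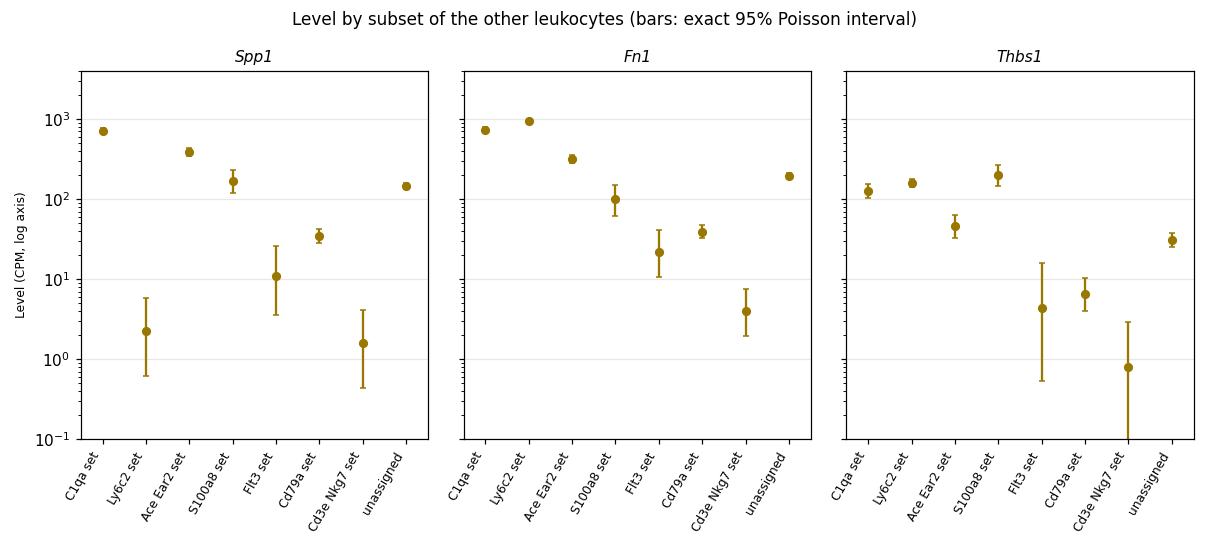
Levels of Spp1, Fn1 and Thbs1 in CPM (log axis) by marker gene set within the other leukocytes, with exact 95% Poisson intervals. Fn1 is highest in the Ly6c2 set (942.9 CPM), where Spp1 stands at 2.26 CPM, and Spp1 is highest in the C1qa set (717.5 CPM). Levels are pooled over suffixes, and suffix 4 holds 5 of the 350 Ly6c2 set cells and 48 of the 134 C1qa set cells.

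Mesenchymal cells were then set against all other kept cells. Sparc stood at 1238.5 CPM in mesenchymal cells (1215 to 1263), against 88.5 CPM in all other cells, 13.99-fold higher (13.4 to 14.7). Ctgf, a matricellular protein induced by TGF-beta and by YAP signalling, stood at 198.3 CPM, against 11.4 CPM, 17.4-fold higher (15.3 to 19.7). Thbs1 stood at 441.8 CPM, against 48.2 CPM, 9.17-fold higher (8.60 to 9.78). Fbln2, a protein of basement membranes and elastic fibres, stood at 57.0 CPM, against 2.29 CPM, 24.9-fold higher (19.0 to 33.2). Tnc, an adhesion-modulating protein of developing and injured tissue, stood at 20.5 CPM, against 0.970 CPM, and Thbs2 at 27.4 CPM, against 1.32 CPM, which are ratios of 21.1 (13.8 to 33.5) and 20.7 (14.4 to 30.7). Fn1 stood at 391.9 CPM in mesenchymal cells, against 285.0 CPM in all other cells. Postn and Cthrc1 had ratios whose intervals included no difference.

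With 10 CPM added, 4 members (Sparc, Ctgf, Thbs1 and Fbln2) were at least 4-fold higher in mesenchymal cells, and Spp1 was at least 4-fold lower. Of the 3897 genes at 50 CPM or more on either side, 12.3% were 4-fold higher and 9.16% 4-fold lower; 6 members passed that level. Tnc and Thbs2 did not reach it, and the added 10 CPM brings their ratios to 2.78 and 3.30. Spp1 stood at 18.6 CPM in mesenchymal cells, against 224.2 CPM in all other cells, 12.1-fold lower (10.3 to 14.3). With the stricter class thresholds, which ask for 10 collagen UMIs, the count of 4-fold higher members was 2.

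Most of the 2523 mesenchymal cells came from suffix 4 (1822) and suffix 1 (549). Sparc ranged from 901.9 to 1922 CPM over the 6 suffixes, and Ctgf from 150.3 to 427.2 CPM. Thbs1 ranged from 122.1 to 542.2 CPM and Fn1 from 233.8 to 1134 CPM. Sparc was detected in 86.9% of mesenchymal cells, Thbs1 in 44.0%, Fn1 in 40.3% and Ctgf in 28.3%. Thinned to 1000 UMIs these shares were 62.9%, 27.5%, 23.6% and 15.02%, against 0.154%, 0.154%, 0.308% and 0 of the 649 leukocytes with T and NK cell genes, few of which were in suffixes 1 and 4. In suffix 4 the unthinned levels of these 29 leukocytes were 29.96 CPM of Sparc, 7.49 CPM of Thbs1, 22.5 CPM of Fn1 and 7.49 CPM of Ctgf.

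Within the mesenchymal class, cells were assigned to subtypes by sets of leading genes, and 830 of the 2523 stayed unassigned. The 6 subtypes with 30 or more cells were Hhip and Aspn cells (492), Npnt and Slc7a10 cells (475), Pi16 and Scara5 cells (372), Rbp4 and Adam23 cells (184), Cdh22 and Kcnk2 cells (79) and mesothelium, from Wt1, Upk3b, Msln and Lrrn4 (75). Between their highest and lowest subtype, 6 of the 10 members were at least 4-fold apart with 10 CPM added (Fn1, Thbs1, Thbs2, Fbln2, Ctgf and Tnc), against 21.8% of the 4559 genes at 50 CPM or more in some subtype; 7 members passed that level. The count was 3 with 50 CPM added. Each member had its own order of subtypes.

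Fn1 and Thbs1 had the widest ranges over the subtypes, 34.8-fold and 27.6-fold with 10 CPM added. Fn1 was highest in Npnt and Slc7a10 cells, at 1006 CPM (955.2 to 1059). It stood at 394.4 CPM in Pi16 and Scara5 cells, 184.0 in Cdh22 and Kcnk2 cells, 117.7 in mesothelium, 112.0 in Rbp4 and Adam23 cells and 19.2 CPM (12.3 to 28.6) in Hhip and Aspn cells. The interval of mesothelium (88.4 to 153.5) overlapped those of Cdh22 and Kcnk2 cells (143.2 to 232.9) and of Rbp4 and Adam23 cells (89.9 to 137.8). Thbs1 was highest in the Hhip and Aspn cells, at 1049 CPM (992.8 to 1107). It stood at 560.1 CPM in Cdh22 and Kcnk2 cells and 525.5 CPM in Npnt and Slc7a10 cells, with overlapping intervals, and at 324.6 CPM in Rbp4 and Adam23 cells. It was low in Pi16 and Scara5 cells, at 61.4 CPM (48.9 to 76.0), and in mesothelium, at 28.3 CPM (15.1 to 48.4). Fn1 and Thbs1 thus had their extremes in the same Hhip and Aspn cells, in opposite directions.

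Thbs2, a close relative of Thbs1, shared its highest subtype and not the rest of its order. Thbs2 stood at 92.2 CPM in Hhip and Aspn cells (76.1 to 110.6), 42.4 CPM in Pi16 and Scara5 cells (32.2 to 54.8) and 13.8 CPM in Rbp4 and Adam23 cells. It had 2 UMIs in Npnt and Slc7a10 cells, 1.37 CPM (0.165 to 4.93), where Thbs1 stood at 525.5 CPM. In the whole class Thbs1 was found in 94 of the 178 cells with Thbs2 (52.8%), against 44.0% of all mesenchymal cells.

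Ctgf and Tnc were both highest in Npnt and Slc7a10 cells. Ctgf stood there at 398.6 CPM (366.9 to 432.2), then at 212.6 CPM in Pi16 and Scara5 cells, 149.4 in Cdh22 and Kcnk2 cells, 124.5 CPM in Rbp4 and Adam23 cells, with an interval of 84.1 to 120.2 CPM in Hhip and Aspn cells and a level of 45.8 CPM in mesothelium. From Pi16 and Scara5 cells down to Hhip and Aspn cells each neighbour in this order overlapped the next in its interval. Tnc stood at 62.1 CPM in Npnt and Slc7a10 cells (50 to 76.3) and 19.2 CPM in Hhip and Aspn cells (12.3 to 28.6). In each of the remaining 4 subtypes Tnc had 3 UMIs or fewer.

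Fbln2 had another order. It stood at 148.2 CPM in mesothelium (115.1 to 187.9), 138.8 CPM in Pi16 and Scara5 cells (119.7 to 160.0), with overlapping intervals, and 65.4 CPM in Rbp4 and Adam23 cells. It stood at 16.0 CPM or less in the other 3 subtypes, with 4.01 CPM in Hhip and Aspn cells. A further 16 cells with Adh7, Bmp7 and Notum, too few for the count, had 216.8 CPM (115.5 to 370.8). Sparc varied least among the 7 members at 50 CPM or more, from 584.9 CPM in Hhip and Aspn cells (543.3 to 629.0) to 1509 CPM in Pi16 and Scara5 cells (1445 to 1576). Spp1 stood at 48.5 CPM in Npnt and Slc7a10 cells, where a single cell held 53 of 71 UMIs, and at 6.29 to 21.3 CPM in the other 5 subtypes. The few mesenchymal Postn and Cthrc1 UMIs were mainly in Pi16 and Scara5 cells, with 40 of 65 and 9 of 13.

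**Figure D5:**
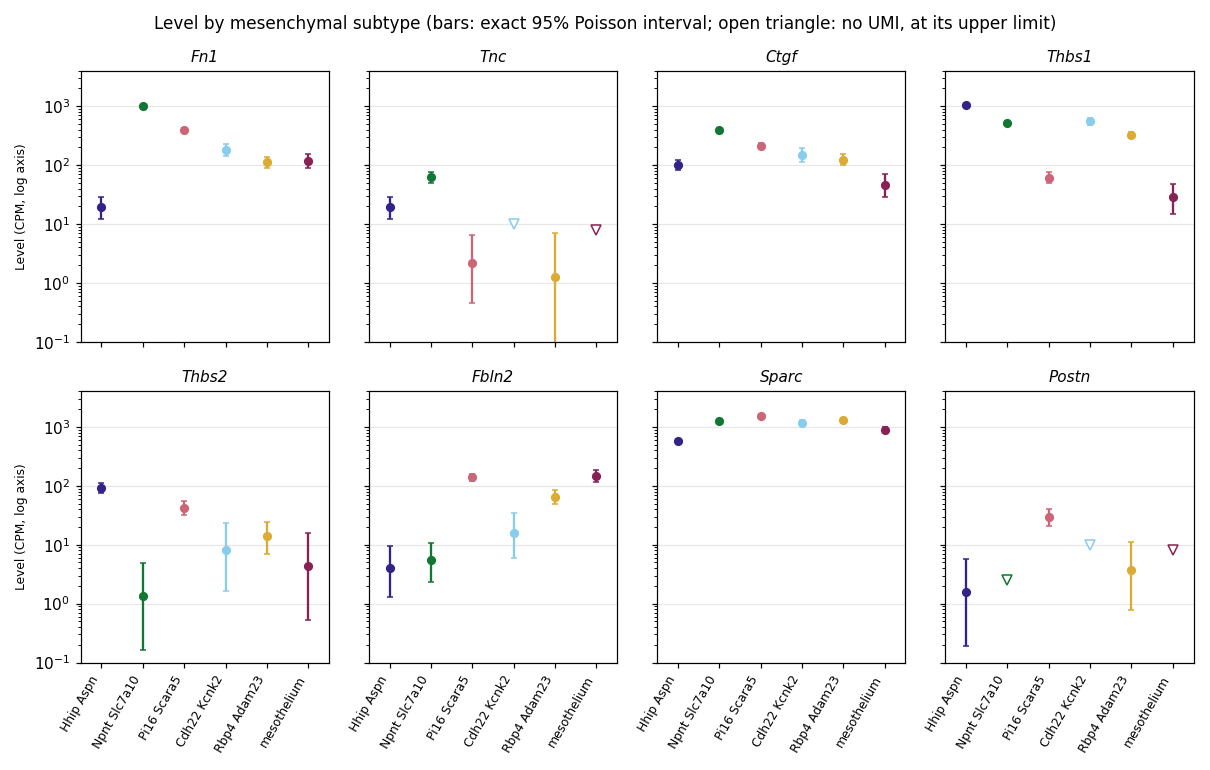
Level of 8 members by mesenchymal subtype, in CPM on a log axis, with exact 95% Poisson intervals; open triangles mark no UMI, at the upper limit. Fn1 ranges from 19.2 CPM in Hhip and Aspn cells to 1006 CPM in Npnt and Slc7a10 cells, while Sparc stays between 584.9 and 1509 CPM.

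Levels by suffix are given where 20 or more cells were present. In Npnt and Slc7a10 cells Fn1 stood at 966.3, 985.9 and 1216 CPM in suffixes 1, 4 and 5 (32, 401 and 23 cells), and in Hhip and Aspn cells at 6.38 and 23.7 CPM in suffixes 1 and 4. Thbs1 in Hhip and Aspn cells stood at 781.5 and 1143 CPM in suffixes 1 and 4 (168 and 321 cells). Fbln2 in Pi16 and Scara5 cells stood at 209.6 and 115.3 CPM in suffixes 1 and 4 (98 and 251 cells). Suffixes 1 and 4 were further apart for Thbs1 in Rbp4 and Adam23 cells, at 73.1 and 362.2 CPM, and for Thbs2 in Pi16 and Scara5 cells, at 8.73 and 47.4 CPM. Clusters made without the members also gave a count of 6 genes, but their cells were grouped differently. No cluster was assigned to Rbp4 and Adam23 cells, and a cluster of 244 cells led by Sftpc stayed unassigned. The Cdh22 and Kcnk2 cluster held 456 cells, with Fn1 at 382.5 CPM, and the mesothelium cluster had 267.4 CPM. Fn1 was highest in the Npnt and Slc7a10 cluster (1023 CPM) and lowest in the Hhip and Aspn cluster (14.7 CPM). Fbln2 was highest in a cluster of 74 Adh7, Bmp7 and Notum cells, at 174 CPM.

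Cthrc1, a secreted protein used in other work to mark collagen-rich fibroblasts of fibrotic lung, was rare in the mesenchymal cells here. It stood at 14.9 CPM in endothelium (9.25 to 22.8, 21 UMIs in 20 of 591 cells), against 1.55 CPM in mesenchymal cells (0.823 to 2.64, 13 UMIs in 9 of 2523 cells). Of the 21 endothelial UMIs, 17 were in the 170 cells with a UMI of the vessel gene Vwf, at 34.7 CPM (20.2 to 55.5), against 4.37 CPM (1.19 to 11.2) in the 421 cells without, a split chosen after the levels were seen. Thinned to 1000 UMIs, 2.28% of 526 endothelial cells (1.18% to 3.95%) and 0.122% of 2470 mesenchymal cells had Cthrc1, against 0 of the 649 leukocytes with T and NK cell genes. Fbln2 stood at 38.8 CPM in the cells with Vwf, against 7.65 CPM in those without, Ctgf at 42.9 against 9.83 CPM, and Postn at 24.5 against 3.28 CPM. Sparc did not follow this split, at 379.5 and 433.8 CPM. The mesenchymal markers summed to 237.0 CPM in endothelium, against 24008 CPM in the mesenchymal class.

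Relatives and receptors of the members were described from lists chosen with earlier results known. Of 24 related matrix genes, 11 reached 50 CPM in mesenchymal cells or in all others, and 10 of these were 4-fold higher in mesenchymal cells, with a median log2 ratio of 3.33, against 0.07 over all genes tested, of which 12.3% were 4-fold higher. The largest ratios were those of Cyr61, a relative of Ctgf in the CCN family, at 2072 CPM in mesenchymal and 94.7 CPM in all other cells, and of fibulin 1 (Fbln1), at 356.6 and 10.98 CPM. Between mural and mesenchymal cells, 5 of 11 relatives were 4-fold lower and none higher in mural cells (4.56% and 7.9% of all genes tested), led by Fbln1 (23.1 and 356.6 CPM) and Cyr61 (235.1 and 2072 CPM). The only relative tested between alveolar macrophages and other leukocytes was Tgfbi, at 328.8 and 171.1 CPM.

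Among 12 receptor genes tested between mesenchymal and all other cells, 1 was 4-fold higher in mesenchymal cells and 5 were lower, against 12.3% and 9.16% of all genes tested. The higher gene was Itga8, an integrin chain that pairs with Itgb1 and binds fibronectin, osteopontin and tenascin-C, at 267.8 CPM, against 17.6 CPM. The largest differences downward were the leukocyte integrin chain Itgb2, at 4.28 CPM, against 199.0 CPM, and the thrombospondin receptor Cd36, at 7.26 CPM, against 238.3 CPM. In alveolar macrophages over other leukocytes 3 of 10 receptors were 4-fold higher (5.22% of all genes tested), with the osteopontin receptor Cd44 at 1660 and 239.5 CPM and Itgax at 361.0 and 50.6 CPM. In mural over mesenchymal cells 3 of 11 were 4-fold higher and 1 lower (7.9% and 4.56% of all genes tested). The largest of these were Cd36, at 917.3 and 7.26 CPM, and Stab1, at 64.5 and 1.67 CPM, both of which were also present in endothelium, at 1523 and 112.4 CPM.

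Of the 20 genes on the list of TGF-beta and YAP response, 15 were tested between mesenchymal and all other cells, with 7 higher and 1 lower at 4-fold (12.3% and 9.16% of all genes tested). Col1a1 led, at 1129 and 34.9 CPM, with Cyr61 second. Col1a1 is also a mesenchymal marker here and a collagen gene like those of the class rule, so its place follows in part from that rule. In mural over mesenchymal cells 2 of 18 were higher and 5 lower (7.9% and 4.56% of all genes tested), with Ltbp2 at 424.1 and 34.1 CPM and Cyr61 as above. In alveolar macrophages over other leukocytes 2 of 7 were higher and none lower (5.22% and 4.29% of all genes tested), with Axl the higher of them in ratio, at 664.8 and 64.0 CPM. Immediate early genes, which respond within minutes to stimulation and to tissue dissociation, were 4-fold higher in mesenchymal cells for 2 of 14, Jun at 1452 and 297.8 CPM and Egr1 at 1174 and 242.6 CPM, a share near the 12.3% of all genes tested, and their median log2 ratio was 1.42. They are given here beside Ctgf and Thbs1, themselves fast-responding genes, and their part in these levels was not tested. In mural cells 2 of 14 were 4-fold lower (4.56% of all genes tested), Atf3 with no UMI against 75.3 CPM in mesenchymal cells and Nr4a1 at 59.9 and 493.6 CPM. None of 12 was 4-fold apart between alveolar macrophages and other leukocytes.

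The genes most like each member were ranked by Pearson's r of log2 levels over 11 groups, the 5 named classes and the 6 subtypes, which share cells and libraries, among 6199 genes. The values describe these groups only. Postn was most like Notch3 (r = 0.98), itself a gene of the mural rule, then Col8a1 and Vtn (0.96 each). Spp1 was most like Pag1 (0.99), then Fam134b and Mob3b (0.92 each). Sparc was most like the collagen receptor gene Antxr1 (0.99), with Camk2n1 (0.98) and Zbtb20 (0.97). Thbs1 was most like Pde7b (0.97), Serpine2 (0.95) and Adamtsl2 (0.95), and Thbs2 most like Penk and Lum (0.95 each) and Igf2 (0.94). Ctgf was most like Selenbp1, Ltbp4 and 2310022B05Rik (0.97 each). Fbln2 was most like Adgrd1 and Gxylt2 (0.97 each) and Il33 (0.93). Fn1 was most like Bscl2 (0.97), Nap1l1 (0.89) and Il6ra (0.87), and Tnc most like Bmper and Slc7a10 (0.91 each) and Znrf3 (0.89). Slc7a10 is itself a marker gene of the subtype in which Tnc was highest. Cthrc1, with the fewest UMIs, had the lowest values, 0.87 for Mark3 and 0.86 for Lsm2 and Ankra2.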

How the data were processed

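The authors deposited UMI counts per gene and cell barcode in 1 table for all 6 samples. Genome build mm10, Cell Ranger 1.3.0 and STAR 2.5.1 are named in the submitters' processing notes. A normalized table deposited beside it was not used. Barcodes with under 500 genes (318) or over 10% mitochondrial UMIs (105) were dropped, and Scrublet, run per suffix, removed 75 doublets (0.751% of 9994). Levels are summed UMIs of a gene per 1000000 UMIs of the group (CPM) with exact Poisson intervals; ratios have exact conditional binomial intervals and shares Clopper-Pearson intervals, all 95%. PCR and sampling of animals are not covered. A gene was called 4-fold apart from CPM with 10 CPM added. The ratio code was tested on simulated data.

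No test across samples was made, since each group has 1 sample and suffixes are not tied to samples. The members, context lists and comparisons were chosen with earlier results of these data known. Levels of all 10 members were computed in every class and subtype, and those of few UMIs are given by counts or ranges or left out; per member the 3 most alike genes were named, and from each context list the 2 of largest fold, except 1 gene that is not reported here. Subtypes needed 2 or more distinct markers and strictly more than of any other subtype. For thinned shares each cell was drawn down to 1000 UMIs and shallower cells were left out, 53 of the 2523 mesenchymal and 5 of the 66 mural cells. Analyses used Python 3.11.15, numpy 2.4.6, scipy 1.17.1 and scanpy 1.11.5. Fn1, Thbs1, Tnc, Spp1 and Ctgf overlap other annotated genes, and no source used here says how reads of overlapping genes were counted.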

Additional observations from a re-analysis of the deposited data

Results flagged for a closer look

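The 491 barcodes removed by the cell filter or as doublets, which enter no comparison, also held UMIs of the members. There 3 UMIs would be 2.76 CPM, and Cthrc1 had 2 UMIs. Sparc stood there at 272.8 CPM, Spp1 at 173.2, Fn1 at 157.6, Thbs1 at 124.4 and Ctgf at 48.8 CPM. Tnc and Fbln2 stood at 11.98 CPM each, Postn at 9.22 and Thbs2 at 7.37 CPM.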

How the results depend on the processing

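The count of members with their largest share in mesenchymal cells (6) was 3 with stricter class thresholds and 6 to 7 with each suffix left out in turn. The count 4-fold higher in mesenchymal cells (4) was 2 with stricter thresholds and 4 without any 1 suffix. The count 4-fold apart between subtypes (6) was 3 with 50 CPM added and 6 to 7 without a suffix. Between mural and mesenchymal cells (5) it was 3 with cells thinned to 1000 UMIs, 3 with 50 CPM added and 3 to 6 without a suffix, with the 3 seen without suffix 3. Between alveolar macrophages and other leukocytes (1) it was 0 with class rules in reversed order, with stricter thresholds, with median-of-ratios scaling and with 50 CPM added, and 0 to 1 without a suffix, with the 0 seen without suffix 5. The causes were not tested. Of 197 recomputed log2 ratios of called members, 178 were still 4-fold in the same direction; all 22 changes of sign, among 515 ratios, were of members not called. Size factors do not enter shares. No paired analysis was possible because each group has 1 sample and no result comes from a test. The 66 mural cells with 216946 UMIs and the 49 Cthrc1 UMIs set the precision of those results.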
